A study of Rattus norvegicus with 6 samples.

Results

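Acute phase plasma proteins were examined in rat liver through 10 genes, Hp, Hpx, Crp, Apcs, Orm1, A2m, Lcn2, Itih3, Itih4 and Cp, which were taken by name from the 30957 genes of the expression table. Each name matched a single row. The livers came from female Sprague Dawley rats, 3 weeks old at purchase, whose own gut microbiota had been reduced by repeated antibiotic courses in the drinking water, which both groups received. The 3 t-PBS rats then received faecal microbiota transplantation (FMT) from donors injected with phosphate-buffered saline (PBS), and the 3 t-DHEA rats received it from donors injected with the androgen precursor dehydroepiandrosterone (DHEA), by daily gavage for 2 weeks. The faecal pellets of the donors were pooled, so the rats of a group shared an inoculum, and rats were housed in pairs, so some livers of a group may also share a cage. The comparison asks whether the microbiota of hyperandrogenic donors altered the acute phase genes of the recipient liver.

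The acute phase response is the change in plasma proteins that follows infection or tissue injury. Interleukin-6 and interleukin-1, released largely by macrophages, act on hepatocytes through STAT3, C/EBP and NF-kB transcription factors, and the output of positive acute phase proteins goes up while that of albumin and other negative acute phase proteins goes down. In the rat, alpha-2-macroglobulin and alpha-1-acid glycoprotein are strongly inducible, whereas C-reactive protein is already abundant in healthy animals. Bacterial products that reach the liver from the gut by the portal vein are one of the stimuli that can induce this response.

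The count on genes ran from 12348511 to 14316886 per liver and overlapped between groups. Albumin took 10.6% to 13.5% of the counts, and 13 of 14 hepatocyte markers passed the filter for low counts, which 12210 genes passed in all. Expression is given as CPM, the counts scaled to a common library size with TMM factors, for comparisons between livers. Comparisons between genes use the deposited FPKM, which are scaled by gene length as well. The groups were compared with edgeR's quasi-likelihood test, to which the p-values beside fold changes belong. A differentially expressed gene (DEG) met the study's criteria, a p under 0.05 before adjustment together with a change of more than 1.2-fold in either direction. These p-values measure the spread between the livers sampled. A two-sided exact permutation test of 3 livers against 3 reaches p = 0.1 at the lowest.

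Of the 10 genes, 9 passed the filter, and A2m was listed at 0. Lcn2, which encodes the siderophore-binding lipocalin 2, was the only DEG among the 9, with expression in t-DHEA livers at 0.478 times that in t-PBS livers. No member was upregulated. DEGs made up 4.95% of all genes tested, and those lower in t-DHEA livers made up 2.98%, and 1 DEG among 9 members (11.1%) is not told apart from that background. Over the 9 members the median log2 fold change was 0.111, against 0.00132 over all genes tested, and leaving out a liver gave a lowest median of 0.0583 (t-PBS rat 2 left out) and a highest of 0.231 (t-PBS rat 1 left out). After Benjamini-Hochberg adjustment over the 12210 genes, neither a member nor any other gene (0.0%) passed 0.05 with edgeR's quasi-likelihood test, while 634 genes did so before adjustment. The adjusted p-values of the 9 members ran from 0.805 to 0.996 in that test. DESeq2 and edgeR's likelihood-ratio test called 24 and 28 genes at that adjusted threshold, and no member was among them. Non-overlapping groups were seen in 1 of the 9 members, Lcn2, against 10.1% of all genes tested.

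**Figure D1:**
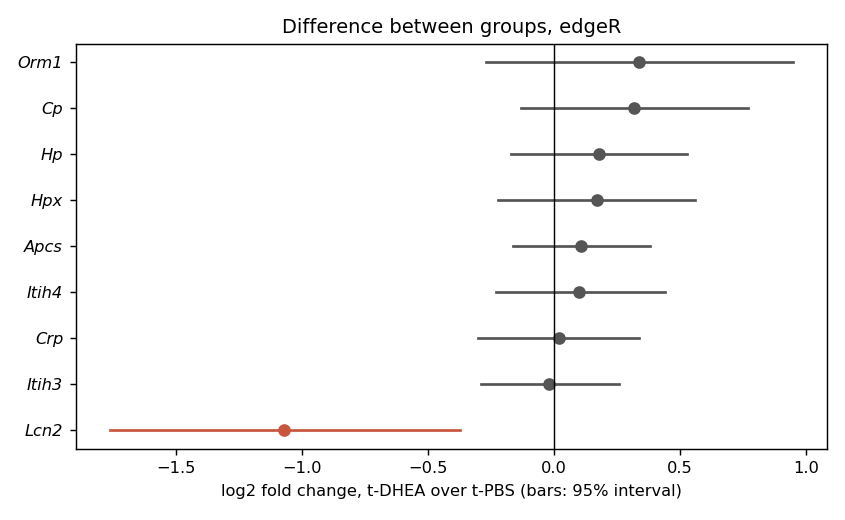
Log2 fold change of t-DHEA over t-PBS livers on the horizontal axis for the 9 members tested, with 95% intervals from edgeR's quasi-likelihood fit (3 livers per group). The interval of Lcn2, from -1.76 to -0.37, lies below 0, and those of the other 8 genes, in grey, include 0.

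The promoters of the members were read from RefSeq to show the sequence in which the acute phase factors are known to act. RefSeq promoter windows on GRCr8, from 250 bases before to 50 bases after the transcription start, were matched by symbol for 8 of the 10 genes. Hp and A2m were not matched. Windows of 5 genes are printed, in lower case with motif matches in capitals. Lcn2 is shown because it is the gene that differed, Itih4 because it holds the single STAT3-type match, Orm1 and Cp because their levels differed most between livers among the other members, and Crp because it has the most counts of the members in t-PBS livers. The windows are chr3:36081731-36082030 on the minus strand for Lcn2, chr16:6086735-6087034 on the plus strand for Itih4, chr5:81788259-81788558 on the plus strand for Orm1, chr2:104368420-104368719 on the plus strand for Cp and chr13:87693812-87694111 on the plus strand for Crp.
Lcn2: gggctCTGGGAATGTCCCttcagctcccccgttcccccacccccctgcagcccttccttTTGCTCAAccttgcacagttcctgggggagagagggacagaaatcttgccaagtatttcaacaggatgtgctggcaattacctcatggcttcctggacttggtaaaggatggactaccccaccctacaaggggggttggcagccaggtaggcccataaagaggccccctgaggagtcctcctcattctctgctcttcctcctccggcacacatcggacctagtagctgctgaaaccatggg
Itih4: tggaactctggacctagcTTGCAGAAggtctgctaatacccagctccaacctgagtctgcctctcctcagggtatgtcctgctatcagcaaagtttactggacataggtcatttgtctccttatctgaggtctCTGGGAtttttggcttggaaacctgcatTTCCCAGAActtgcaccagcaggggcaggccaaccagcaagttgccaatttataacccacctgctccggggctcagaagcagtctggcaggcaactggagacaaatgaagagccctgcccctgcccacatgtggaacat
Orm1: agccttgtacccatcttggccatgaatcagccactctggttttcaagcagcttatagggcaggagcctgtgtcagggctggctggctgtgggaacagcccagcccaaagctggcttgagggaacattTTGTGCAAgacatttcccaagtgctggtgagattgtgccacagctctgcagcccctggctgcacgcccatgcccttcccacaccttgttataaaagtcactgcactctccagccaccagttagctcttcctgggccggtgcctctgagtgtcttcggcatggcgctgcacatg
Cp: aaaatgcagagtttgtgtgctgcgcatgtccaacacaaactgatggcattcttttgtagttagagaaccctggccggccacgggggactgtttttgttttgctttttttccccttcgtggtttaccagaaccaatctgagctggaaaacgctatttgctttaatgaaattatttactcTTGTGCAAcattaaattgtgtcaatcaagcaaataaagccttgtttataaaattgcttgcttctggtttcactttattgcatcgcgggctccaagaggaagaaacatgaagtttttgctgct
Crp: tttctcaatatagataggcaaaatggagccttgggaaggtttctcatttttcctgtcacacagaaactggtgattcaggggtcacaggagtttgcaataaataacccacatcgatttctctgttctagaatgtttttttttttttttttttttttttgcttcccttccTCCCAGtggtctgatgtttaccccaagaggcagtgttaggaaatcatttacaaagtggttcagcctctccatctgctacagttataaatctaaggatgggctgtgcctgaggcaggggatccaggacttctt

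The motifs searched on both strands were TTCNNNGAA, the STAT3-type site, CTGGGA, the hexamer named after acute phase promoters, TTGCNNAA, a C/EBP-type site, and the NF-kB consensus. TTGCNNAA was found in 5 of the 8 windows, those of Hpx, Orm1, Lcn2, Itih4 and Cp, against 10.6% of 33469 promoters in the RefSeq table. CTGGGA was found in 4 of 8, those of Crp, Apcs, Lcn2 and Itih4, against 30.3%. TTCNNNGAA occurred in the Itih4 window alone, from -89 to -81, where it overlaps a CTGGGA match on the minus strand, and 8.87% of promoters held it. The NF-kB consensus was found in the Lcn2 window alone, from -242 to -233, and shares 3 bases with a CTGGGA match. It was present in 7.51% of promoters. The Itih3 window held none of the 4 motifs. In the last 150 bases of the window, the numbers were 1 of 8 for TTGCNNAA, 3 of 8 for CTGGGA, 1 of 8 for TTCNNNGAA and 0 of 8 for the NF-kB consensus, against 4.92%, 16.7%, 4.02% and 3.76% of promoters. These matches describe the letters of the windows, and binding was not measured.

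**Figure D2:**
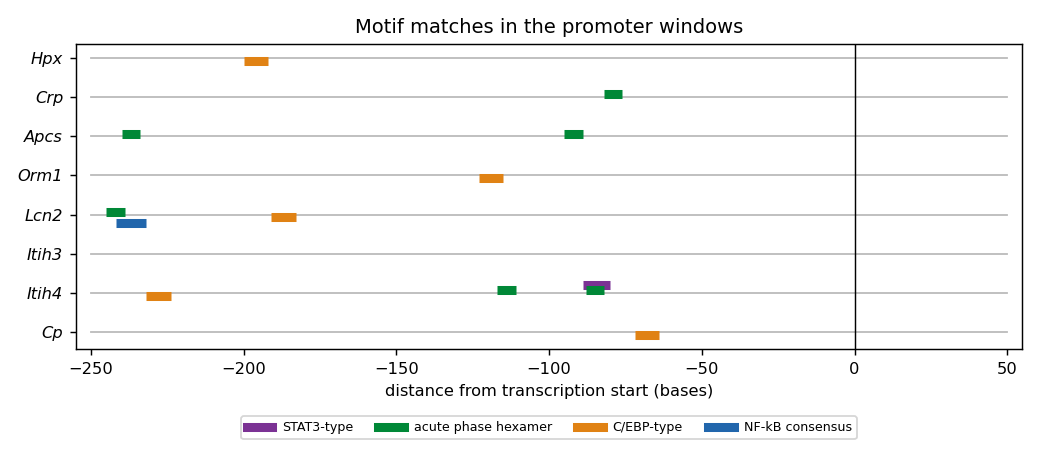
Position of motif matches in the 8 promoter windows, in bases from the transcription start, with 1 row per gene and 1 colour per motif. Matches to TTGCNNAA are in the rows of Hpx, Orm1, Lcn2, Itih4 and Cp, and the STAT3-type match lies in that of Itih4 only.

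Measured per length, 8 of the 10 genes were among the 149 genes with the highest mean FPKM in these livers. Hp, which encodes haptoglobin, the scavenger of free haemoglobin, was the highest at a mean of 4091 FPKM over the 6 livers and ranked 18 among all genes. Hpx followed at 3634 FPKM, Itih4 at 1890, Crp at 1597, Itih3 at 1413, Apcs at 742, Cp at 739 and Orm1 at 365 FPKM. Lcn2 had a mean of 5.38 FPKM and ranked 6161. Each gene in this order from Hp to Apcs was higher than the next in all 6 livers, although the ranges over livers overlapped for Hp and Hpx, for Itih4 and Crp, and for Crp and Itih3. The levels of Apcs and Cp could not be ordered, since each was higher in 3 of the 6 livers. The order by FPKM rests on the gene lengths used for scaling. By CPM, Crp had the highest mean of the members, 6558 in t-PBS and 6638 in t-DHEA livers. Together the members took 2.9% to 3.39% of the counts in t-PBS and 3.15% to 3.51% in t-DHEA livers.

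**Figure D3:**
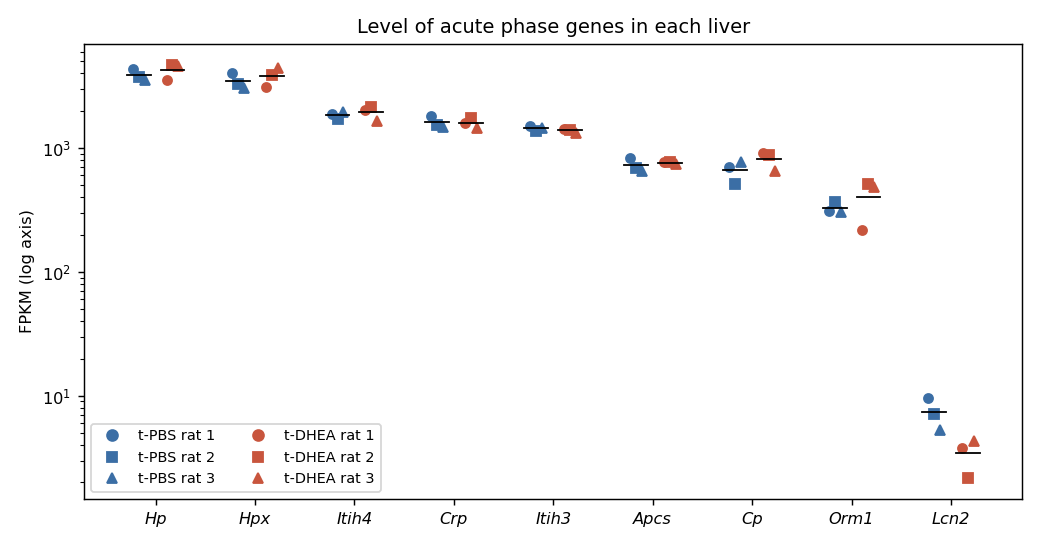
FPKM of 9 members in each liver on a log axis, with symbols for the rat, colours for the group and a black line at the group mean. 8 genes lie above 200 FPKM in every liver and Lcn2 lies below 10 FPKM, and A2m, listed at 0, is not drawn.

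Lcn2, on chromosome 3 of Rnor_6.0 from 11414186 to 11417546, encodes a small secreted protein that withholds iron from bacteria. It is made by hepatocytes during inflammation, and by neutrophils and epithelia. Its expression was 8.62, 6.05 and 4.68 CPM in t-PBS rats 1, 2 and 3, from 123, 82 and 62 counts. In t-DHEA rats 1, 2 and 3 it was 3.47, 1.95 and 3.86 CPM, from 42, 26 and 50 counts. The groups did not overlap, and the gap between their nearest livers, t-PBS rat 3 and t-DHEA rat 3, was smaller than the range within either group. The means were 6.45 ± 2.002 CPM (SD, n = 3) in t-PBS and 3.09 ± 1.01 CPM (SD, n = 3) in t-DHEA livers. Lcn2 thus fell by 1.07 on the log2 scale (SE 0.30), with p = 0.00698 before and 0.805 after adjustment in edgeR's quasi-likelihood test, and p = 0.1 in the exact permutation test. Leaving out any 1 of the 6 livers kept Lcn2 a DEG, at log2 fold changes from -1.26 to -0.80.

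Markers of other cell types were read beside Lcn2. In whole liver, fewer cells of a type and less RNA per cell cannot be told apart by such markers. Of 15 markers of the mesothelium of the liver capsule and of bile duct epithelium, 11 passed the filter, and all 11 had a negative log2 fold change. Of these, 6 were DEGs, namely the uroplakins Upk3b and Upk1b, Muc16 and Msln of mesothelium, and the keratins Krt7 and Krt19, with log2 fold changes from -2.59 to -1.31. The bile duct markers Epcam, Sox9 and Ehf were not DEGs, at -0.25, -0.68 and -0.35 (edgeR, unadjusted p 0.225, 0.137 and 0.484). Lrrn4 and Gpm6a were not DEGs either, at -1.38 and -0.13 (edgeR, unadjusted p 0.0717 and 0.865). Gpm6a had 148, 139 and 143 counts in t-PBS and 154, 2 and 206 counts in t-DHEA rats 1, 2 and 3. Upk1b lost its call without t-DHEA rat 1, t-DHEA rat 2 or t-PBS rat 3 (log2 fold changes from -3.32 to -1.29 over the 6 fits with a liver left out), and Krt7 lost its call without t-DHEA rat 1 or t-PBS rat 3 (-4.28 to -1.56) and with DESeq2. Their summed level over the 15 genes was 55.03 to 61.0 CPM in t-PBS livers, and 32.0, 11.9 and 45.6 CPM in t-DHEA rats 1, 2 and 3. The t-DHEA livers had the same order for this sum as for Lcn2, with rat 2 lowest and rat 3 highest, whereas in t-PBS livers the order differed. Wt1, Spp1, Cldn4 and Cldn7 of this list were below the filter. The part of these cells in the level of Lcn2 was not tested. Neutrophils were read in the same way. Of 18 marker genes, Mpo, Ltf, Prtn3, Ctsg, Cxcr1, Np4 and RatNP-3b had no count in any liver, and 3 passed the filter. The sum of all 18 was 2.80 to 3.44 CPM in t-PBS and 3.74 to 5.62 CPM in t-DHEA livers. S100a9, a calcium-binding protein of neutrophils, was a DEG in the opposite direction to Lcn2, with a log2 fold change of 0.94 (edgeR, unadjusted p 0.044), from 13, 7 and 9 counts in t-PBS and 24, 14 and 14 counts in t-DHEA livers. It lost its call with DESeq2 and without t-DHEA rat 1, t-PBS rat 2 or t-PBS rat 3, with log2 fold changes from 0.59 to 1.18 with a liver left out. The other 2 neutrophil genes tested were not DEGs, with log2 fold changes of -0.93 for Mmp9 and 0.25 for Csf3r (edgeR, unadjusted p 0.184 and 0.742). The median log2 fold change of the 3 neutrophil genes tested was 0.254. Without the filter, 3 of 11 neutrophil genes met the criteria, most of the 11 from few counts, and the median was 0.82. The part of neutrophils in the level of Lcn2 was not tested. None of the 11 Kupffer cell markers tested was a DEG, and their summed level overlapped between groups.

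**Figure D4:**
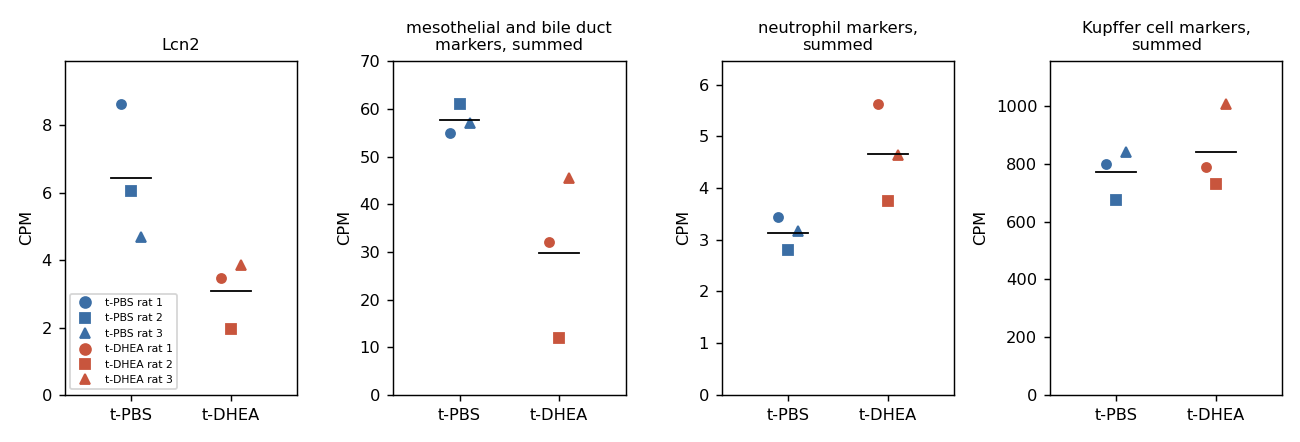
CPM of Lcn2 and summed CPM of 3 marker lists in each liver, with symbols for the rat and a black line at the group mean. Lcn2 and the mesothelial and bile duct sum are lower in the t-DHEA livers, the neutrophil sum is between 2.80 and 5.62 CPM and higher in t-DHEA livers, and the Kupffer cell sums overlap.

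Orm1, on chromosome 5 from 79179417 to 79182820, encodes alpha-1-acid glycoprotein, a plasma lipocalin that binds drugs and steroids. It was expressed at 317, 360 and 310 CPM in t-PBS rats 1, 2 and 3, and at 227, 526 and 495 CPM in t-DHEA rats 1, 2 and 3. The t-DHEA livers lay on both sides of the t-PBS livers, with rat 1 lowest and rats 2 and 3 highest of the 6. The coefficient of variation was 8.26% among t-PBS and 39.5% among t-DHEA livers. The log2 fold change of Orm1 was 0.34 (SE 0.27, edgeR p = 0.239, exact permutation p = 0.4), and the 95% interval of the fold ran from 0.829 to 1.93. Without t-DHEA rat 1 the log2 fold change was 0.63 (edgeR, unadjusted p 0.00073), and Orm1 then met the criteria for a DEG, whereas leaving out t-DHEA rat 2 gave 0.14 and leaving out t-DHEA rat 3 gave 0.20 (edgeR, unadjusted p 0.632 and 0.527).

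Hp, on chromosome 19 from 42097995 to 42100804, was expressed at 5148, 4269 and 4183 CPM in t-PBS rats 1, 2 and 3, and at 4285, 5616 and 5512 CPM in t-DHEA rats 1, 2 and 3. The 2 highest livers were t-DHEA rats 2 and 3, and t-DHEA rat 1 was among the t-PBS livers. The log2 fold change of Hp was 0.18 (SE 0.15, edgeR p = 0.268, exact permutation p = 0.2), and the 95% interval of the fold ran from 0.891 to 1.44. Hpx, on chromosome 1 from 170423483 to 170431073, encodes hemopexin, which binds free haem and delivers it to hepatocytes. Its expression was 6328, 4958 and 4807 CPM in t-PBS rats 1, 2 and 3, and 4987, 6131 and 6991 CPM in t-DHEA rats 1, 2 and 3. As with Hp, t-PBS rat 1 and t-DHEA rats 2 and 3 were the 3 highest livers. The log2 fold change of Hpx was 0.17 (SE 0.17, edgeR p = 0.343, exact permutation p = 0.5), and the 95% interval of the fold ran from 0.861 to 1.47. Genes of red blood cells, the source of the haemoglobin that haptoglobin binds, summed to 250 to 392 CPM in t-PBS and 418 to 827 CPM in t-DHEA livers, and Hba1, Hba2, Hbb and Hbb-b1 were upregulated DEGs, although Hbb lost its call without t-PBS rat 2, t-PBS rat 3 or t-DHEA rat 2 (log2 fold changes from 0.29 to 0.91 with a liver left out) and with DESeq2, limma or library totals alone. Globins made up most of the sum, and the other 2 red cell genes tested were not DEGs, Alas2 with a log2 fold change of 0.38 and the membrane gene Slc4a1 with one of -0.11 (edgeR, unadjusted p 0.355 and 0.626). Below the filter, LOC287167, matched to the alpha globin Hba-a1, had 31, 18 and 0 counts in t-PBS and 9, 0 and 0 counts in t-DHEA livers. Hbe1 had 4, 0 and 1 counts in t-PBS and no count in t-DHEA livers, and Ahsp had at most 1 count in a liver. The part of red blood cells in the levels of Hp and Hpx was not tested. Cd163, the macrophage receptor for haptoglobin bound to haemoglobin, had 42.9 CPM in t-PBS and 49.0 CPM in t-DHEA livers with overlapping groups. Hmox1, the haem-degrading oxygenase, had 44.1 and 39.9 CPM, and Lrp1, a receptor for hemopexin and alpha-2-macroglobulin, had 1041 and 1248 CPM. None of these 3 genes was a DEG.

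Crp, on chromosome 13 from 91054974 to 91093713, and Apcs, 332765 bases further along the same chromosome from 91426479 to 91427575, encode the pentraxins C-reactive protein and serum amyloid P component, ring-shaped proteins that bind microbes and cell debris. Crp was expressed at 7473, 6060 and 6140 CPM in t-PBS rats 1, 2 and 3, and at 6657, 7226 and 6031 CPM in t-DHEA rats 1, 2 and 3. The group means of Crp, 6558 and 6638 CPM, differed by less than either SD. Its log2 fold change was 0.02 with a 95% interval from -0.30 to 0.34, and was negative with library totals alone and with limma on FPKM. Apcs had 818, 650 and 648 CPM in t-PBS rats 1, 2 and 3, and 781, 764 and 739 CPM in t-DHEA rats 1, 2 and 3. The 3 t-DHEA livers lay between t-PBS rat 1 and the other two t-PBS livers. The log2 fold change of Apcs was 0.11 (SE 0.12, edgeR p = 0.382, exact permutation p = 0.4), and the 95% interval of the fold ran from 0.894 to 1.3. An annotated 7SK copy without counts lies within the Crp gene.

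Itih4 and Itih3 encode heavy chains of the inter-alpha-trypsin inhibitor family. They are neighbours on chromosome 16, Itih4 from 6970342 to 6985579 and Itih3 from 6992062 to 7007287, with 6482 bases between them. Itih4 was expressed at 6148, 5387 and 6470 CPM in t-PBS rats 1, 2 and 3, and at 6777, 7123 and 5459 CPM in t-DHEA rats 1, 2 and 3. The lowest liver of each group, t-PBS rat 2 and t-DHEA rat 3, had nearly equal values. Itih3 had 4948, 4260 and 4715 CPM in t-PBS rats 1, 2 and 3, and 4750, 4636 and 4389 CPM in t-DHEA rats 1, 2 and 3, and its highest liver was 1.16 times its lowest, the smallest ratio among the 9 members. The median of this ratio was 1.28 over 1141 other genes with a mean of at least 100 CPM. The log2 fold changes of Itih4 and Itih3 were 0.10 (edgeR p = 0.496, exact permutation p = 0.5) and -0.02 (edgeR p = 0.90, exact permutation p = 0.9). The 95% interval of the fold reached from 0.853 to 1.36 for Itih4 and from 0.819 to 1.19 for Itih3. Leaving out t-PBS rat 1 or t-DHEA rat 3 turned the sign of Itih3, at log2 fold changes of 0.03 and 0.02. Itih1, Itih2 and Ambp, the last of which encodes the light chain bikunin, had log2 fold changes of 0.04, -0.04 and 0.00 (p from 0.704 to 0.974, edgeR).

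Cp, on chromosome 2 from 104744461 to 104799853, encodes ceruloplasmin, the copper-carrying ferroxidase of plasma. It was expressed at 2800, 1938 and 3056 CPM in t-PBS rats 1, 2 and 3, and at 3639, 3502 and 2583 CPM in t-DHEA rats 1, 2 and 3. The 2 highest livers were t-DHEA rats 1 and 2, and t-DHEA rat 3 lay within the t-PBS range. The log2 fold change of Cp was 0.32 (SE 0.20, edgeR p = 0.143, exact permutation p = 0.3), and the 95% interval of the fold ran from 0.913 to 1.7. Without t-DHEA rat 3 the log2 fold change was 0.46 (edgeR, unadjusted p 0.0476), and Cp then met the criteria, whereas it was 0.15 without t-PBS rat 2 (edgeR, unadjusted p 0.416). The Cp gene shares 10431 bases with Hps3, which had at most 70 counts in a liver. Atp7b, the copper pump that loads ceruloplasmin, had a log2 fold change of 0.09 (edgeR, unadjusted p 0.63).

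A2m, on chromosome 4 from 154309426 to 154359137, encodes alpha-2-macroglobulin, the broad protease trap of rat plasma, and had no count in any of the 6 livers. A count of 0 allows a level of up to 3 counts, which is 0.2095 CPM in the deepest and 0.2429 CPM in the shallowest library, and this limit covers counting error only. The table holds a second row described as alpha-2-macroglobulin-like, LOC100911545, which begins 64071 bases after A2m on the same chromosome, spans 49716 bases against 49712 for A2m, and also had no count in any liver. Reads from near-identical copies can be lost or split by counting, so the 0 of A2m is uncertain as a level. Other members of the family were measured. Pzp had 7338 CPM in t-PBS and 8241 CPM in t-DHEA livers, and LOC297568, an alpha-1-inhibitor III and a negative acute phase protein, had 987 and 1005 CPM. Of 7 family members other than A2m tested, none was a DEG.

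**Figure D5:**
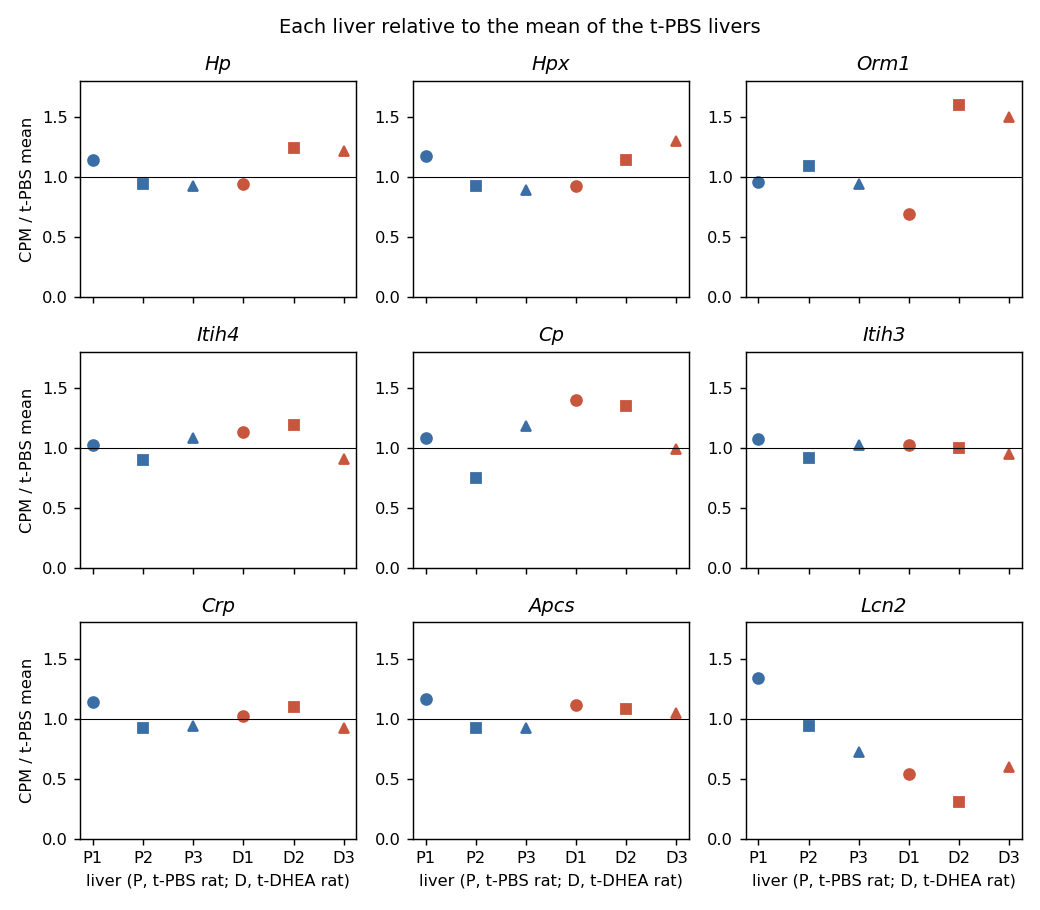
CPM of each member in each liver divided by the mean of the t-PBS livers, which is drawn as a line at 1. In Hp, Hpx and Orm1 the livers D2 and D3 lie above 1 and D1 lies below it, in Itih4 and Cp the livers D1 and D2 are highest, and in Lcn2 all t-DHEA livers lie at 0.302 to 0.599.

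The members did not vary as a single group across the 6 livers. In Hp, Hpx and Orm1, t-DHEA rat 1 was below the t-PBS mean and t-DHEA rats 2 and 3 were above it. For t-PBS rat 1 the genes differed, with Hp and Hpx above that mean and Orm1 below it. Itih4 and Cp shared their lowest values in t-PBS rat 2, followed by t-DHEA rat 3. Of 5 pairs compared over the 6 livers on the log2 CPM scale, Hp and Hpx had the highest Pearson's r, 0.944 (permutation p = 0.0528, adjusted p = 0.153), and Spearman's rho was 0.829 (permutation p = 0.0583). Without the 2 livers farthest from the median of Hp, r was 0.9998 over 4 livers. Crp and Apcs had an r of 0.792 (permutation p = 0.0611, adjusted p = 0.153) and a rho of 0.714 (permutation p = 0.136), and r was 0.67 without 2 livers. Itih3 and Itih4 had an r of 0.676 (permutation p = 0.144, adjusted p = 0.241) and a rho of 0.486 (permutation p = 0.356), and r was -0.89 without 2 livers. On the log2(FPKM + 0.1) scale the same pair had an r of 0.531 (permutation p = 0.286, adjusted p = 0.477) and of 0.67 without 2 livers. The livers left out for this pair differed, t-PBS rat 2 and t-DHEA rat 3 by CPM, and t-PBS rat 1 and t-DHEA rat 3 by FPKM. The change of sign therefore does not compare the scales over the same 4 livers. Lcn2 had an r of -0.417 with Orm1 (permutation p = 0.408, adjusted p = 0.51) and of -0.332 with Hp (permutation p = 0.525, adjusted p = 0.525), with rho of -0.257 (permutation p = 0.658) and -0.486 (permutation p = 0.356). Without 2 livers these were -0.65 and 0.79, the latter with a change of sign. No pair passed after adjustment. Lcn2 and Hp were also set beside 11785 genes with a mean of at least 1 CPM, from which unnamed identifiers and microRNA genes were then left out. Among the named genes, those most like Lcn2 by Pearson's r over the 6 livers included Fgd2 (0.984) and Tubd1 (0.98). Those most like Hp were Slc25a14 (0.986), Ociad1 (0.983) and Mrpl17 (0.982), as a description of 6 livers that share the scaling of their library.

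The rest of the acute phase programme was read from lists of genes by role. Of 30 other positive acute phase genes tested, 1 was upregulated and 1 downregulated, and the median log2 fold change was -0.00598. The upregulated gene was S100a9, described above, and the downregulated gene was Cd14, the lipopolysaccharide co-receptor, with a log2 fold change of -0.70 (SE 0.26, edgeR, unadjusted p 0.0231). Cd14 lost its call without t-PBS rat 1, t-PBS rat 3, t-DHEA rat 2 or t-DHEA rat 3, and its log2 fold changes with a liver left out ran from -0.97 to -0.46. The number of DEGs in this list depended on the liver left out, with 6 on leaving out t-PBS rat 2, 0 on leaving out t-PBS rat 3 and 1 on leaving out t-DHEA rat 1 or 3, and was 4 with the likelihood-ratio test. The 4 metallothionein rows, of which a pair share the name Mt1 and whose near-identical copies can share reads, had log2 fold changes from -0.69 to -0.49 and were not DEGs (edgeR, unadjusted p from 0.0689 to 0.29). The fibrinogen chains Fga, Fgb and Fgg had log2 fold changes of -0.03, -0.02 and -0.04, and C3, Lbp and Saa4 had 0.21, 0.28 and -0.15, with p from 0.235 to 0.856 over these 6 genes (edgeR). Of 18 negative acute phase genes, none was a DEG, and the median was 0.0281. Alb, the most abundant transcript, had a log2 fold change of 0.08, and Ttr, the carrier of thyroxine and retinol-binding protein, had one of -0.05.

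Among 28 genes of the cytokine signals that drive acute phase genes, 1 was upregulated, none was downregulated, and the median log2 fold change was 0.0173. The upregulated gene was Osmr, the oncostatin M receptor, which had 226, 199 and 139 counts in t-PBS and 272, 403 and 186 counts in t-DHEA livers. Its log2 fold change was 0.71 (SE 0.26, edgeR, unadjusted p 0.0233). Osmr lost its call without t-PBS rat 3, t-DHEA rat 1 or t-DHEA rat 2 (log2 fold changes from 0.43 to 0.95 with a liver left out) and with limma on FPKM. The number of DEGs in the cytokine list was 0 on leaving out t-PBS rat 3 and 2 on leaving out t-PBS rat 2, t-DHEA rat 2 or t-DHEA rat 3. It was 3 without the filter and 0 with limma on FPKM. Below the filter, Il22ra1 had 6, 3 and 5 counts in t-PBS and no count in t-DHEA livers. A Tnf row had 3, 4 and 2 counts in t-PBS and no count in t-DHEA livers. Another Tnf row had 7, 5 and 5 counts in t-PBS and 2, 8 and 4 counts in t-DHEA livers. Il6 was listed at 0 in every liver. Il6r and Il6st, the receptor chains for interleukin-6, had 93.8 and 160 CPM in t-PBS livers and log2 fold changes of 0.14 and -0.10. Stat3 had a log2 fold change of 0.08 and Socs3, a STAT3 target that closes the loop as an inhibitor, had one of -0.25 (edgeR, unadjusted p 0.399 and 0.371). Of 16 receptors and partners of the members and of 4 other inter-alpha-inhibitor genes tested, none was a DEG. Among 13 hepatocyte markers, Tat, a tyrosine aminotransferase that glucocorticoids induce, was a DEG with a log2 fold change of 0.68 (SE 0.19, edgeR, unadjusted p 0.00647), also in all 6 fits with a liver left out.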

How the data were processed

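RNA from snap-frozen liver was sequenced as paired-end TruSeq libraries. The authors filtered the reads with Seqtk, mapped them to Rnor_6.0 with HISAT2 2.0.4 and counted fragments per gene with StringTie 1.3.0. The deposited counts carry no normalization, and the deposited FPKM values scale them by gene length and library total. The annotation release and the strandedness are not given in the sources used here. All 6 livers were grouped from their titles. edgeR 4.0.16 was fitted to the whole table of counts (default filter, TMM, quasi-likelihood test), intervals of fold changes were taken from its standard errors, and p-values were adjusted over all genes tested. The study applied edgeR to FPKM values by its own account. Here no count model was fitted to FPKM.

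The members and lists were chosen with earlier results of these data known. Of 195 list entries, 175 matched a gene name, 9 matched through RefSeq synonyms and 11 did not match. Named genes were the members, the DEGs or up to 2 genes with the lowest p of each list, and genes most like Hp and Lcn2, of which 1 is not reported here. Other named genes of the lists were chosen after their values were seen. Correlations used log2 CPM with a prior count of 2. Replicates are separate samples by their titles. Alternatives were DESeq2 1.42.0, limma 3.58.1 on log2(FPKM + 0.1) and log2(FPKM + 1), other scalings, filters and tests, a replicate block, and each liver left out in turn. The correlation of A2m with Lcn2 was not computed, since A2m had no count.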

Additional observations from a re-analysis of the deposited data

How the results depend on the processing

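The number of members meeting the criteria was 1 under each of the 11 alternatives of test, scaling, filter or unit and at fold-changes above 1.5 and 2, and it was always Lcn2. It ran from 1 to 2 when single livers were left out, with Orm1 added without t-DHEA rat 1 and Cp added without t-DHEA rat 3. No member had an adjusted p below 0.05 under any of these settings. For Lcn2 the log2 fold change ran from -1.10 to -0.91 and the adjusted p from 0.176 to 0.979 over the 11 alternatives. The replicate number paired no rats by its labels, and deviations of same-numbered livers had correlations of -0.0571, -0.0592 and -0.0551. With it as a block, 1 member met the criteria and the median log2 fold change was 0.119. The median log2 fold change of all genes ran from -0.0367 with limma on FPKM to 0.00813 without a filter. The median of the members was 0.074 with library totals alone. The sign of Crp depended on the scaling and on the liver left out, and that of Itih3 on the liver left out. When at least 10 counts were required in every liver, S100a9 was not tested, and 2 of the 3 mesothelial and bile duct markers still tested met the criteria. The 3 livers per group and the 26 to 123 counts of Lcn2 per liver limit the precision.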
